A study of Mus musculus with 26 samples.

Results

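Transcript levels of 10 genes of iron uptake, storage and export were followed across 8 populations of EML cells, a mouse haematopoietic line that grows in stem cell factor and can give rise to erythroid, myeloid and lymphoid cells. The genes were chosen by symbol (Tfrc, Tfr2, Slc11a2, Slc25a37, Slc25a28, Steap3, Slc40a1, Fth1, Ireb2 and Aco1). They had 17 probes among the 41174 probes of the array, on which 18378 gene symbols could be named. All 10 genes and all 17 probes were well above background on every array, so that none was lost to the filter on dim probes.

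Total RNA was measured on 26 Agilent arrays of 1 colour, in 3 array sets on separate slides. In the first set, 3 sorted fractions were compared with 3 arrays each: Sca1hi, CR Sca1lo and EryCP, separated on the surface markers Sca1, CD34 and cKit. In the second set, 3 arrays of Ediff, which are CD34-negative and cKit-negative cells obtained by erythropoietin (Epo) treatment of EryCP cells, were set against 3 arrays of a repeat measurement of EryCP (EryCP repeat). In the third set, CD34- CD103- and CD34+ CD103- cells had 4 arrays each, and the CD34- CD103- fraction differentiated with Epo, written CD34- CD103- Epo, had 3. All samples come from this 1 line grown in horse serum and medium conditioned with stem cell factor, and the labels do not say whether the arrays of a group came from separate cultures. The p-values therefore measure only the spread between these samples, which may be technical. The sources used here do not give the dose or duration of Epo.

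Red cell precursors take up iron bound to transferrin, which transferrin receptor 1 (Tfrc) carries into endosomes. There the ferrireductase Steap3 reduces the iron, the divalent metal transporter Slc11a2 moves it to the cytosol, and mitoferrin 1 (Slc25a37) brings it into mitochondria, where heme and iron-sulfur clusters are made. Transferrin receptor 2 (Tfr2) is a second transferrin binder that associates with the Epo receptor in erythroid cells, and mitoferrin 2 (Slc25a28) is the broadly expressed relative of mitoferrin 1. Ferritin heavy chain (Fth1) stores iron and ferroportin (Slc40a1) exports it. The iron regulatory proteins Aco1 (IRP1) and Ireb2 (IRP2) bind iron-responsive elements in several of these transcripts and set their stability or translation when iron is scarce.

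A level is given as the log2 processed signal of the gene's brightest probe minus the array's 75th percentile, so that 1 unit is a 2-fold difference and 0 is the signal at that percentile. Levels of different probes are not set against each other, and differences were tested only within an array set, with limma across all features (named genes, and each probe without a name on its own) and a Benjamini-Hochberg adjusted p under 0.05 as the threshold. The 75th percentile of the signal ranged from 425.3 to 1247 across the arrays, and 76.0% to 93.8% of probes were well above background. In the second set this percentile was 425.3 to 460.9 in Ediff and 598.6 to 704.2 in EryCP repeat. The value used for centring was therefore lower on every Ediff array. Of 10 erythroid marker genes, 10 were higher in Ediff than in EryCP repeat, against 39.8% of all features. Their summed level was 9.68 to 9.72 in Ediff against 5.28 to 5.76 in EryCP repeat. A summed level is the log2 of the sum of a list's linear signals over the 75th percentile, so that bright markers weigh most. In CD34- CD103- Epo, 4 of the 10 erythroid markers and 8 of 10 mast cell and basophil markers were lower than in CD34- CD103- cells and 0 were higher. Of all features, 1.92% were lower and 0.676% higher in that comparison. In Ediff, 9 of the mast cell and basophil markers were lower than in EryCP repeat, against 16.8% of all features. Even so, 9 of 10 stayed well above background on every array.

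**Figure D1:**
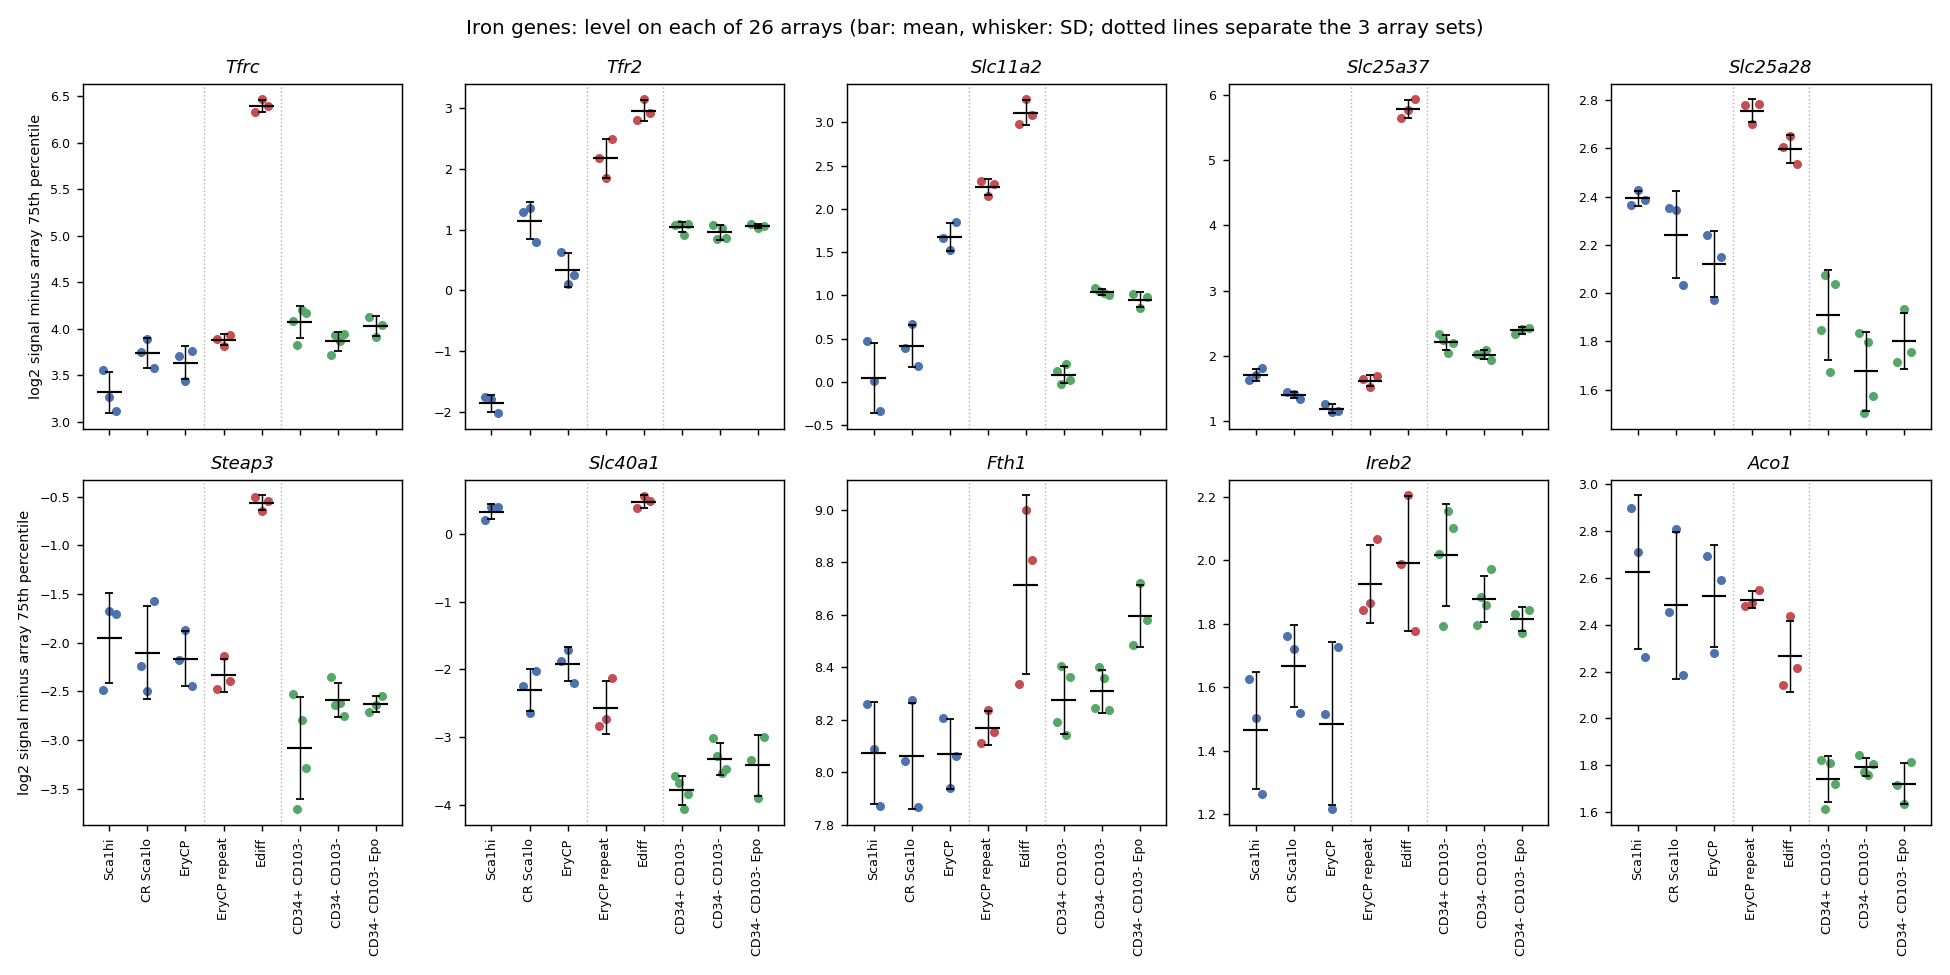
Level of each of the 10 iron genes on the 26 arrays. The vertical axis is the log2 processed signal minus the array's 75th percentile. Each point is 1 array, bars are group means, whiskers are SD, and dotted lines separate the 3 array sets. The Ediff arrays stand above the EryCP repeat arrays for Tfrc (6.33 to 6.47 against 3.82 to 3.94), Slc25a37 (5.65 to 5.93 against 1.53 to 1.70), Steap3 and Slc40a1.

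The comparison of Ediff with EryCP repeat asks how iron genes differ between EryCP cells and the cells obtained from them under Epo. In Ediff, 7 of the 10 genes were higher and 0 were lower, against a background of 39.8% of 24703 features higher and 16.8% lower (56.6% called in either direction). The median difference of all features was 0.45, and that of the 10 iron genes was 0.82. The receptor Tfrc, the mitochondrial importer Slc25a37, the reductase Steap3 and the exporter Slc40a1 moved the most, by 3.41-fold to 17.9-fold. The Ediff and EryCP repeat arrays did not overlap for 9 of the 10 genes, which was the case for 63.3% of all features. In bulk RNA, a change in the share of cells of a type and a change in RNA per cell cannot be told apart.

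Transferrin-bound iron enters through Tfrc, whose level was 6.33, 6.47 and 6.39 on the Ediff arrays and 3.89, 3.82 and 3.94 on the EryCP repeat arrays. The groups lay far apart relative to their own spread. The difference was 2.51 ± 0.09 (SE), a 5.71-fold rise (adjusted p = 8.02e-06), and it was 2.54 and 2.55 within the slides that held both groups. Its probe was printed on 10 spots, those of the other members on 1 each, and the SD over spots was 0.046 to 0.161 across the 26 arrays, with a median of 0.066.

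Tfr2 was 2.81, 3.14 and 2.92 in Ediff and 2.18, 1.85 and 2.49 in EryCP repeat. The groups did not overlap, but the EryCP repeat arrays were spread widely. The rise was 0.79 ± 0.19, or 1.72-fold (adjusted p = 0.0151), and it missed the threshold without EryCP repeat replicate 1 (adjusted p = 0.0517). The ferrireductase Steap3 was -0.50, -0.65 and -0.55 in Ediff and -2.47, -2.14 and -2.40 in EryCP repeat. This was a 3.41-fold rise (1.77 ± 0.12, adjusted p = 9.14e-05). Its other probe rose by 1.35. Slc11a2, which passes the reduced iron out of the endosome, was 2.98, 3.27 and 3.09 in Ediff and 2.32, 2.15 and 2.29 in EryCP repeat, without overlap. It rose 1.81-fold (0.86 ± 0.11, adjusted p = 0.00144), and its other 2 probes rose by 0.65 and 0.72.

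The promoters shown are those of the 3 uptake genes that were higher in Ediff and for which a RefSeq window was at hand. Of the 10 genes, 7 had at least 1 window, 14 windows in all, and none was at hand for Slc25a37, Slc40a1 and Slc11a2. Each sequence is the 250 bases before a transcript start of the RefSeq promoter table, from the most upstream of the gene's windows there (the Tfr2 gene entry itself begins inside its window), 5′ to 3′ along the gene, and the last base is the one next to that start. The Steap3 coordinates as printed share a base with its gene entry, so that its last base may be the start itself. Capitals mark matches on either strand to the GATA motif (AGATAA as well as TGATAA, and with a final guanine AGATAG as well as TGATAG), the CACC-type motif (CCNCNCCC) bound by Kruppel-like factors, and the core ACGTG of the hypoxia-response element.
Tfrc promoter, GRCm38.p6 chr16:32608646-32608895, plus strand: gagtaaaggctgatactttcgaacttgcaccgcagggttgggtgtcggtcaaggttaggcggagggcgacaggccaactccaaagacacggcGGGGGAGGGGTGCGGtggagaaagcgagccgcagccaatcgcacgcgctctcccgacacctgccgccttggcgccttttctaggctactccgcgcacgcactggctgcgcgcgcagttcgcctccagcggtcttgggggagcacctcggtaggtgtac
Tfr2 promoter, GRCm38.p6 chr5:137569590-137569839, plus strand: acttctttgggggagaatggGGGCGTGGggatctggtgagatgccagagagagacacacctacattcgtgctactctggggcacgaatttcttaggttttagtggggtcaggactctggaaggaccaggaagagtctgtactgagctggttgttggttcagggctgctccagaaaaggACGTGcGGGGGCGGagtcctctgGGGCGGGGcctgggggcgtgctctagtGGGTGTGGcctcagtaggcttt
Steap3 promoter, GRCm38.p6 chr1:120271081-120271330, minus strand: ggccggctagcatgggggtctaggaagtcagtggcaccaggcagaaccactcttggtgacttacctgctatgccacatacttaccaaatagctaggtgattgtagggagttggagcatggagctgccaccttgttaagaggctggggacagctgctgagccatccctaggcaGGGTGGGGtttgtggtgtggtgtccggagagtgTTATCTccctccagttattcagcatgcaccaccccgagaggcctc
The GATA motif was matched in the Steap3 window, on the reverse strand beginning 45 bases before the start, and in neither the Tfrc nor the Tfr2 window shown. The CACC-type motif matched in all 3 windows, 3 times with overlaps for Tfrc, 4 times for Tfr2 and once for Steap3. The ACGTG core matched in the Tfr2 window, 72 bases before the start. Over all windows of the 10 genes, 3 of 14 held a GATA match, 12 held a CACC-type match and 4 held the ACGTG core. Among the 32851 RefSeq windows of the same length, 26.5%, 45.9% and 16.6% did. The GATA match of Slc25a28, a gene that was not called, and a further one in another Tfr2 window were the remaining 2. A match describes letters and is no evidence of binding.

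Slc25a37 had the largest difference of the 10 genes in Ediff. Its level was 5.65, 5.77 and 5.93 in Ediff and 1.64, 1.53 and 1.70 in EryCP repeat, a 17.9-fold rise (4.16 ± 0.11, adjusted p = 3.32e-06). Its other probe rose by 2.88, so that the size depended on the probe while the direction did not. The related carrier Slc25a28 was 2.61, 2.65 and 2.53 in Ediff and 2.78, 2.70 and 2.78 in EryCP repeat. It was slightly lower on every Ediff array, and the difference of -0.16 ± 0.09 was not called (adjusted p = 0.157).

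Ferroportin (Slc40a1) was 0.38, 0.56 and 0.48 in Ediff and -2.84, -2.73 and -2.12 in EryCP repeat. The rise was 8.21-fold (3.04 ± 0.20, adjusted p = 8.98e-05), with 3.04 and 3.16 within the slides that held both groups. Because Slc40a1 is also high in iron-recycling macrophages, macrophage markers are given beside it. Of the 9 that were tested, 6 were higher in Ediff, 1 was lower and 2 were not called. Of all features, 39.8% were higher and 16.8% lower. The median difference of these markers was 0.58 against 0.45 for all features. Csf1r, the receptor of macrophage colony-stimulating factor, was 8.79-fold higher and the scavenger receptor Marco was 2.84-fold higher. The summed level of the markers was 1.86 to 2.22 in Ediff against 0.24 to 0.69 in EryCP repeat. Cd163, the haemoglobin scavenger receptor, was well above background on 0 of the 3 Ediff arrays and on 3 of the 3 EryCP repeat arrays. Mrc1, the mannose receptor, was well above background on 0 arrays of either group. The part of these markers in the rise of Slc40a1 was not tested.

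Fth1 was 8.34, 9.00 and 8.81 in Ediff and 8.11, 8.24 and 8.15 in EryCP repeat. Its rise of 0.55 ± 0.18 (1.46-fold, adjusted p = 0.0440) was close to the median of all features, which it passed by 0.09. The sign turned with quantile normalization (-0.20), with scaling on the spike-in probes (-0.42) and in the deposited value table (-0.15), and the call was lost without Ediff replicate 2, without Ediff replicate 3 and without any of the EryCP repeat arrays (adjusted p of 0.0699 to 0.127). Ireb2 differed by 0.07 ± 0.14 (adjusted p = 0.694) and overlapped between the groups, and its 3 probes differed by 0.07 to 0.20. Aco1 was 2.14, 2.44 and 2.22 in Ediff and 2.48, 2.49 and 2.55 in EryCP repeat. The difference of -0.24 ± 0.11 was not called (adjusted p = 0.0980), but without Ediff replicate 2 it was (-0.33, adjusted p = 0.0251). It was also called lower with quantile normalization (-0.35, adjusted p = 0.0109), in the deposited table (-0.21, adjusted p = 0.0273), with a trended robust eBayes and with spike-in scaling. The other Aco1 probe differed by 0.12 and was not called.

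The scaling of the arrays bears on these sizes, since the median of all features was 0.45 with the 75th percentile, 0.19 with quantile normalization, 0.10 in the deposited table and -0.51 with spike-in scaling. The share of called genes that were higher was 70.2% with the 75th percentile, 59.0% with quantile normalization, 58.2% in the deposited table, 24.3% with the normexp background correction and 8.38% with spike-in scaling. Relative to the median of all features, Slc25a37 was higher by 3.71, Slc40a1 by 2.58, Tfrc by 2.06, Steap3 by 1.32, Slc11a2 by 0.40 and Tfr2 by 0.33. Spike-in scaling shifts every feature by the same amount, so that these values are the same under it by construction. With spike-in scaling and no correction for that median, Tfr2 was at -0.18 and Slc11a2 at -0.10, and Slc25a28 (-1.12), Aco1 (-1.20) and Ireb2 (-0.90) were called lower. Tfrc (1.55), Slc25a37 (3.20), Steap3 (0.81) and Slc40a1 (2.08) were called higher with spike-in scaling too. With normexp Slc25a37 was the 1 gene of the 10 called (3.61, adjusted p = 0.0259), and Tfrc (2.17, adjusted p = 0.166), Slc40a1 (1.62, adjusted p = 0.304) and Steap3 (0.89, adjusted p = 0.797) were not.

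**Figure D2:**
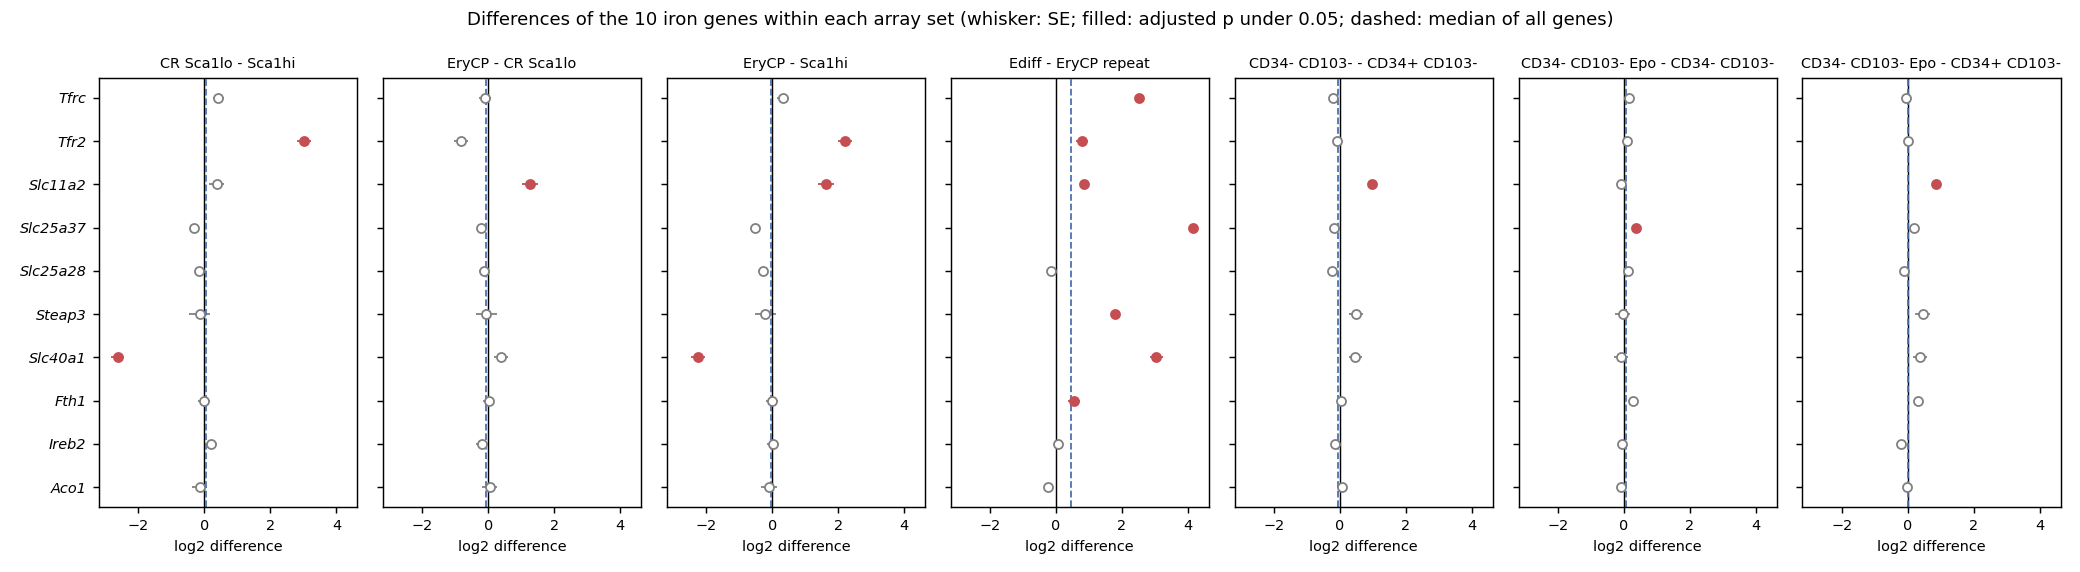
Differences of the 10 iron genes in the 7 comparisons within array sets. The horizontal axis is the log2 difference, points are estimates, whiskers are SE, filled points have an adjusted p under 0.05, and the dashed line is the median of all features. Of the 10 genes, 7 are filled in Ediff minus EryCP repeat, and Slc11a2 is filled in 5 of the 7 comparisons.

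The genes around these 10 were taken from lists, whose counts stand beside the 39.8% of all features that were higher and the 16.8% that were lower in Ediff. Of 14 heme synthesis genes, 13 were higher in Ediff and 0 lower, with a median of 2.63. Alas2, the erythroid enzyme of the first step, rose 142-fold, and Alad, the enzyme of the second step, rose 11.7-fold. Of 18 genes of iron-sulfur cluster assembly, 16 were higher and 2 were lower (median 0.88). The scaffold Iscu rose 2.82-fold and the glutaredoxin Glrx5 3.64-fold, whereas the ferredoxin Fdx1 fell 2.86-fold and its reductase Fdxr 1.33-fold. Among 10 partners of the transferrin cycle 6 were higher and 1 lower, with a median of 0.41 that did not exceed that of all features. Picalm, a clathrin adaptor, rose 4.62-fold and Exoc6, an exocyst subunit mutated in mice with a defect of transferrin cycling, rose 3.55-fold. The gene lower in that list was transferrin itself (Trf), which fell 17.0-fold (-4.09 ± 0.10, adjusted p = 2.79e-06).

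Among 21 further iron genes tested, 4 were higher and 4 lower in Ediff, against the same 39.8% and 16.8% of all features, and their median of 0.48 was near that of all features. Ferritin light chain (Ftl1) rose 4.07-fold (2.03 ± 0.10), against 1.46-fold for Fth1. Ncoa4, the receptor that delivers ferritin to autophagy, fell 2.19-fold, and the zinc and iron importer Slc39a14 fell 3.38-fold. Of 8 transcripts that carry iron-responsive elements, a list that includes Tfrc, Slc11a2, Slc40a1 and Fth1, 6 were higher and 0 lower. It holds both elements of the 5′ end, as in Fth1, Ftl1, Slc40a1 and Alas2, and of the 3′ end, as in Tfrc and Slc11a2, and called genes of both kinds were higher.

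**Figure D3:**
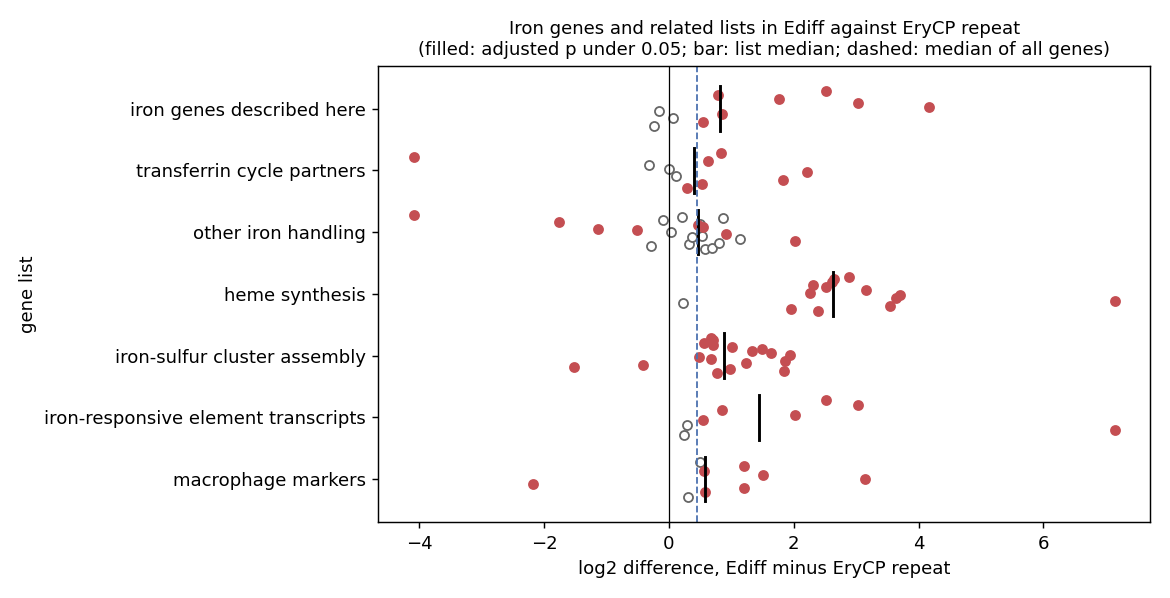
Differences of the 10 iron genes and of 6 related lists in Ediff minus EryCP repeat. The horizontal axis is the log2 difference, each point is 1 gene, filled points have an adjusted p under 0.05, black bars are list medians and the dashed line is the median of all features at 0.45. The heme synthesis genes have a median of 2.63, and Trf lies at -4.09.

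The first array set compares the sorted fractions from Sca1hi through CR Sca1lo to EryCP. From Sca1hi to CR Sca1lo, Tfr2 rose 8.04-fold and Slc40a1 fell 6.19-fold, so that 2 of the 10 genes were called, against 3.59% of 26465 features (1.21% higher and 2.38% lower). The other 8 were not called, Tfrc among them. Over the same step, 2 of 10 mast cell and basophil markers fell (Cma1 by 11.2-fold and Mcpt2 by 6.03-fold) and 1 rose (Mcpt8 by 2.33-fold). Of 9 erythroid markers tested, 1 rose (Hbb-bh1) and 0 fell, with a median difference of 0.15 against 0.03 for all features. Of 6 progenitor markers 2 fell, Ly6a, which encodes the sorted marker Sca1, by 47.3-fold and Hlf by 2.28-fold. Their part in the changes of Tfr2 and Slc40a1 was not tested. From Sca1hi to EryCP, 3 of 10 were called (background 6.39%, 3.1% higher and 3.29% lower): Tfr2 and Slc11a2 rose and Slc40a1 fell. From CR Sca1lo to EryCP, only Slc11a2 was called of the 10 (background 4.95%, 2.7% higher and 2.26% lower). Groups that did not overlap were found for 5, 5 and 3 of the 10 genes in these comparisons, in that order, against 18.6%, 18.9% and 18.1% of all features.

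Tfr2 was -1.76, -1.79 and -2.02 in Sca1hi, 1.30, 1.36 and 0.79 in CR Sca1lo, and 0.64, 0.11 and 0.25 in EryCP. It was low on every Sca1hi array and highest in CR Sca1lo, without overlap between any of the fractions. CR Sca1lo exceeded Sca1hi by 3.01 ± 0.21 (adjusted p = 0.000316), and EryCP exceeded Sca1hi by 2.19 ± 0.21 (4.57-fold, adjusted p = 0.000528). Within slides these differences were 2.81 to 3.12 and 2.02 to 2.43. With the normexp background correction they were 1.79 (adjusted p = 0.869) and 1.37 (adjusted p = 0.482) and not called. EryCP lay below CR Sca1lo by -0.82 ± 0.21, which was not called (adjusted p = 0.0789) but was with the slide as a block (adjusted p = 0.00410), and it was negative on all 3 slides (-1.10 to -0.66). With the block, 5346 of 26465 features were called in this comparison, against 1311 without it.

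Slc40a1 was 0.20, 0.39 and 0.39 in Sca1hi, -2.24, -2.64 and -2.03 in CR Sca1lo, and -1.87, -1.71 and -2.20 in EryCP. It was high in Sca1hi, and the other fractions overlapped each other. The fall was -2.63 ± 0.20 in CR Sca1lo (adjusted p = 0.000435) and -2.25 ± 0.20 in EryCP (4.77-fold, adjusted p = 0.000373). Within slides it was -2.84 to -2.42 and -2.40 to -2.10. With normexp it was -1.49 and -1.88 and not called in either. EryCP exceeded CR Sca1lo by 0.38 ± 0.20, which was not called (adjusted p = 0.539). It was called with the slide as a block (adjusted p = 0.0325) and with quantile normalization, and its sign turned with normexp. Of 26465 features, 5346 were called with the block and 2308 with quantile normalization. The summed macrophage marker level was 1.30 to 2.10 in Sca1hi and 0.98 to 1.93 in CR Sca1lo, ranges that overlap. Of 10 such markers tested, 0 were called between them, against 1.21% of all features higher and 2.38% lower. At those shares a count of 0 among 10 says little. The part of these markers in the fall of Slc40a1 was not tested. Of 22 further iron genes tested, 2 fell beside Slc40a1 in CR Sca1lo, against the same 2.38% of features. They were Ftl1, by 2.73-fold, and the heme-degrading enzyme Hmox1, by 2.78-fold.

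Slc11a2 was 0.47, 0.00 and -0.34 in Sca1hi, 0.39, 0.66 and 0.18 in CR Sca1lo, and 1.67, 1.52 and 1.85 in EryCP. The EryCP arrays lay above all others, while Sca1hi and CR Sca1lo overlapped. EryCP exceeded CR Sca1lo by 1.27 ± 0.23 (2.41-fold, adjusted p = 0.0180) and Sca1hi by 1.63 ± 0.23 (3.10-fold, adjusted p = 0.00430), with 1.18 to 1.34 and 1.38 to 1.86 within slides. The first of these calls was lost without CR Sca1lo replicate 1, CR Sca1lo replicate 3, EryCP replicate 1 and EryCP replicate 3 (adjusted p of 0.0695 to 0.0817) and without slide 2, while the difference stayed between 1.15 and 1.39 in the fits without 1 array. Normexp ended both calls (adjusted p = 0.159 and 0.0972) and spike-in scaling the first (adjusted p = 0.0671). Of the 14 heme synthesis genes, 5 rose from CR Sca1lo to EryCP and 0 fell, among them Alas2 by 6.75-fold. Over the same step 8 of 10 mast cell and basophil markers and 7 of 9 erythroid markers tested rose. Of all features, 2.7% rose. The part of these markers in the rise of Slc11a2 was not tested.

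Slc25a37 was 1.63, 1.70 and 1.81 in Sca1hi, 1.45, 1.42 and 1.35 in CR Sca1lo, and 1.27, 1.15 and 1.16 in EryCP. The fractions did not overlap, and Sca1hi arrays were highest and EryCP arrays lowest. EryCP minus Sca1hi was -0.52 ± 0.13, just short of the threshold (adjusted p = 0.0527), which it passed among probes (adjusted p = 0.0412). With the slide as a block it was called in EryCP minus Sca1hi (adjusted p = 0.00482) and in CR Sca1lo minus Sca1hi (-0.31, adjusted p = 0.0394). Its other probe was not called, with -0.38 in EryCP minus Sca1hi. Tfrc was 3.56, 3.27 and 3.12 in Sca1hi, 3.75, 3.89 and 3.57 in CR Sca1lo, and 3.71, 3.44 and 3.76 in EryCP. It exceeded Sca1hi by 0.42 ± 0.18 in CR Sca1lo (adjusted p = 0.343) and by 0.32 ± 0.18 in EryCP (adjusted p = 0.539), and neither was called. Both were called with the slide as a block (adjusted p = 0.0102 and 0.0230), with quantile normalization and in the deposited table. Steap3, Slc25a28, Fth1, Ireb2 and Aco1 were not called in any comparison of these fractions, and their differences lay between -0.27 and 0.20.

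The third array set compares CD34- CD103- with CD34+ CD103- cells, and the first of these after Epo with both. Slc11a2 was the 1 gene of the 10 called in CD34- CD103- against CD34+ CD103- cells (background 12.5% of 27360 features, 5.66% higher and 6.82% lower). It was 1.08, 1.05, 1.02 and 1.00 in CD34- CD103- cells and 0.12, -0.02, 0.20 and 0.02 in CD34+ CD103- cells. The groups were separate and each was tight. The rise was 1.94-fold (0.96 ± 0.07, adjusted p = 1.20e-05), between 0.82 and 1.02 within slides, and it was called in all 8 fits that left out 1 array. Trf fell 1.57-fold over the same step, and 7 of 14 heme synthesis genes rose, with 0 lower. Of 24 further iron genes tested, Trf was the 1 called lower, and 2 were called higher, Lcn2 and Slc48a1. Lcn2 was well above background on 1 of the 4 CD34+ CD103- arrays. Of all features, 5.66% were higher and 6.82% lower. In this comparison 8 of 10 erythroid markers and 8 of 10 mast cell and basophil markers were higher, and their part in the rise of Slc11a2 was not tested.

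Tfr2, which differed between the Sca1 fractions, was 0.84 to 1.08 in CD34- CD103- and 0.91 to 1.09 in CD34+ CD103- cells. The groups overlapped, and the difference was -0.09 ± 0.08 (adjusted p = 0.576). Slc40a1 was -3.01, -3.28, -3.52 and -3.47 in CD34- CD103- and -3.57, -3.67, -4.06 and -3.83 in CD34+ CD103- cells. The groups stood just apart, and the difference of 0.46 ± 0.19 was not called (adjusted p = 0.173), but was with the slide as a block (0.47, adjusted p = 0.0455). With the block, 4843 of 27360 features were called, against 3413 without it. Steap3 differed by 0.49 ± 0.22 (adjusted p = 0.207), with CD34+ CD103- arrays spread from -3.71 to -2.53. Slc11a2 and Slc40a1 were the only genes of the 10 whose groups did not overlap here, against 17.1% of all features.

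After Epo, CD34- CD103- cells differed from CD34- CD103- cells without it in 1 of the 10 genes (background 2.6%, 0.676% higher and 1.92% lower). Slc25a37 was 2.34, 2.41 and 2.43 after Epo and 2.03, 2.02, 2.10 and 1.94 without, with no overlap. It rose 1.30-fold (0.37 ± 0.08, adjusted p = 0.0472). The call was lost in all 7 fits that left out 1 array (adjusted p of 0.0689 to 0.207) and with the slide as a block (0.30, adjusted p = 0.0732), although the sign held, and the other probe, at 0.23, was not called. Tfrc was 3.91, 4.04 and 4.13 after Epo, against 3.72 to 3.95 without. The groups overlapped, and the difference was 0.16 ± 0.11 (adjusted p = 0.499). Fth1 was 8.48, 8.72 and 8.58 after Epo and 8.24, 8.40, 8.36 and 8.24 without. These groups were separate, with a difference of 0.29 ± 0.10 (adjusted p = 0.170). The remaining 7 genes differed by -0.09 to 0.12. Of 24 further iron genes tested, 2 were higher and 1 lower after Epo, against the same 0.676% and 1.92% of all features. Those called were Hmox1, Slc48a1 and Lcn2.

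Against CD34+ CD103- cells, CD34- CD103- Epo cells differed in Slc11a2 alone of the 10 genes (background 5.52%, 2.57% higher and 2.95% lower). Slc11a2 was 1.02, 0.86 and 0.98 after Epo, and the rise over CD34+ CD103- cells was 1.83-fold (0.87 ± 0.08, adjusted p = 0.000159). With spike-in scaling this call was lost (0.46, adjusted p = 0.0600), and Slc25a28 (-0.52, adjusted p = 0.0235) and Ireb2 (-0.62, adjusted p = 0.0321) were called lower. Fth1 differed by 0.32 ± 0.10 (adjusted p = 0.0923) and was called with the slide as a block (adjusted p = 0.0246). With the block, 2111 of 27360 features were called, against 1510 without it. The 3 comparisons of this set share arrays, so that they are not independent of each other. With spike-in scaling the median of all features was -0.27, -0.12 and -0.39 in these 3 comparisons, in the order given, and the share of called genes that were higher went from 45.4%, 26.1% and 46.6% to 13.9%, 2.72% and 2.01%.

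The size of the Epo difference in the second set was tested against that in the third in 1 fit of 13 arrays. Of the 10 genes, 6 were called with a larger value in Ediff minus EryCP repeat and 0 with a smaller one. Of 27291 features, 23.6% were called larger and 14.3% smaller, 37.8% in either direction. Slc25a37 differed by 4.16 in Ediff and 0.37 in CD34- CD103- Epo, a gap of 3.79 ± 0.12 (adjusted p = 1.04e-09). Slc40a1 differed by 3.04 and -0.09 (gap 3.13 ± 0.33, adjusted p = 1.53e-05). Tfrc differed by 2.51 and 0.16 (gap 2.35 ± 0.12, adjusted p = 4.39e-08). Steap3 differed by 1.77 and -0.04 (gap 1.81 ± 0.16, adjusted p = 4.54e-06). The smaller gaps were 0.95 ± 0.13 for Slc11a2 (adjusted p = 0.000109) and 0.68 ± 0.21 for Tfr2 (adjusted p = 0.0228).

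These 6 gaps were called in all 13 fits that left out 1 array, but not in every other setting. With normexp, of the 10 genes Slc25a37 alone was called, and the gap was 1.599 for Slc40a1 (adjusted p = 0.111), 2.00 for Tfrc (adjusted p = 0.0514), 0.85 for Steap3, 0.58 for Slc11a2 and 0.39 for Tfr2. Relative to the median gap of all features, 0.37, they were 3.42 for Slc25a37, 2.76 for Slc40a1, 1.99 for Tfrc, 1.45 for Steap3, 0.58 for Slc11a2 and 0.31 for Tfr2. With spike-in scaling the median gap of all features was -0.40. Under that scaling Tfr2 stood at -0.08 and Slc11a2 at 0.19 (adjusted p = 0.626), neither of them called. Slc25a28 (-1.04) and Aco1 (-0.93) were called smaller. The share of called features with a larger value in Ediff moved from 62.3% to 11.7% with spike-in scaling (50.5% with quantile normalization, 29.4% with normexp, 54.4% in the deposited table). Fth1, Ireb2, Slc25a28 and Aco1 had gaps of -0.28 to 0.26 that were not called. The starting cells and the sorting after Epo differed between the sets, and set and starting population cannot be told apart here.

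**Figure D4:**
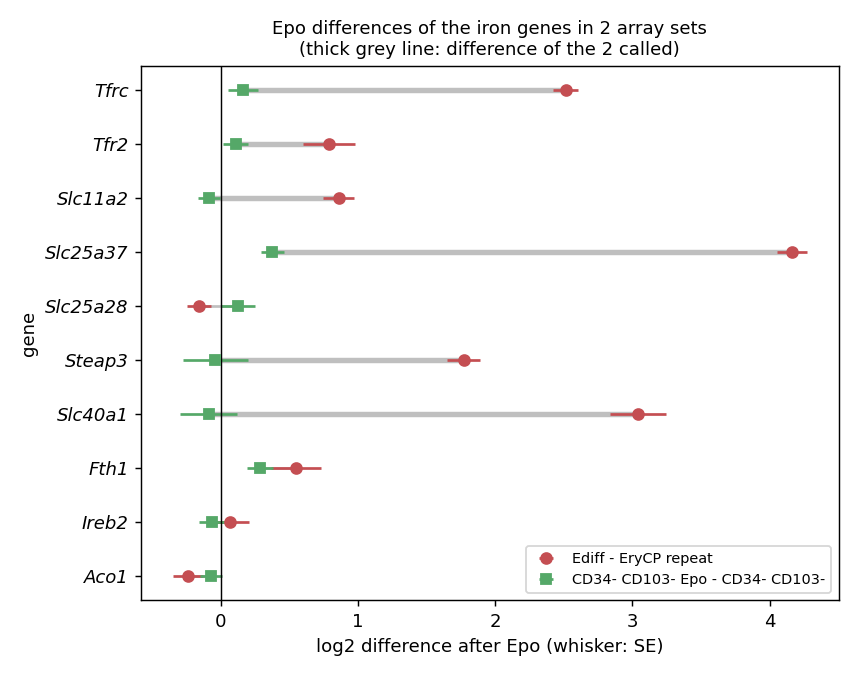
The Epo differences of the 10 iron genes in array sets 2 and 3. The horizontal axis is the log2 difference after Epo, red circles are Ediff minus EryCP repeat, green squares are CD34- CD103- Epo minus CD34- CD103-, and whiskers are SE. Thick grey lines mark the 6 genes whose difference between the sets was called, with Slc25a37 at 4.16 against 0.37.

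Of the 10 genes, 5 had more than 1 probe. In a fit of all probes, in which 57.4% were called in Ediff against EryCP repeat, both probes of Slc25a37 and of Steap3 and all 3 of Slc11a2 were higher. The 3 probes of Ireb2 and 2 of Aco1 were not called in any comparison. Among all probes 4.08%, 5.51% and 7.08% were called in the first set, in the order CR Sca1lo against Sca1hi, EryCP against CR Sca1lo and EryCP against Sca1hi. In the third set 13% were called between CD34- CD103- and CD34+ CD103-, 2.58% after Epo against CD34- CD103- and 5.78% against CD34+ CD103-, and for the gap 39% were. Probes of a gene also disagreed. The probes of Aco1 had opposite signs in Ediff, those of Steap3 differed by 0.49 and -0.07 between CD34- CD103- and CD34+ CD103- cells, and of the Slc25a37 probes only the brightest was called in EryCP against Sca1hi and after Epo in the third set. The Slc11a2 probes differed the following way. From CR Sca1lo to EryCP, 2 of its probes rose, by 1.27 and 0.83 (adjusted p = 0.0160 and 0.00776 among probes), and the remaining one, A_52_P254298, stayed at 0.01. From CD34+ CD103- to CD34- CD103- cells, the same 2 rose by 0.96 and 0.51, and A_52_P254298 was at -0.03. In Ediff it rose with the others, by 0.72 (adjusted p = 0.0140). The second probe, A_52_P196476, is the one assigned to another RefSeq transcript of the gene than the remaining 2, so that the probe with the different course shares its transcript entry with the brightest probe. Slc11a2 is known to be made as transcripts with different first and last exons. Which of them each probe meets was not analysed here.

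**Figure D5:**
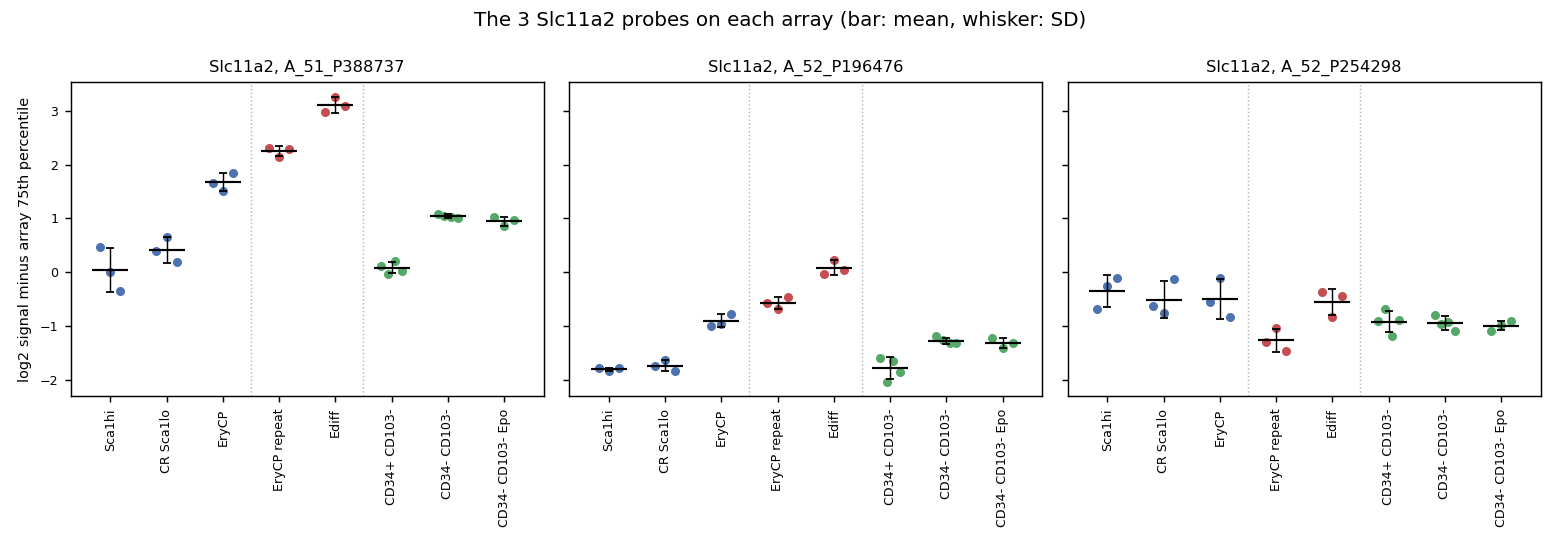
Level of the 3 Slc11a2 probes on the 26 arrays, as log2 processed signal minus the array's 75th percentile. Points are arrays, bars are means and whiskers are SD. A_51_P388737 and A_52_P196476 are higher in EryCP than in CR Sca1lo and in CD34- CD103- than in CD34+ CD103- cells, whereas A_52_P254298 differs by 0.01 and -0.03, and all 3 are higher in Ediff than in EryCP repeat.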

How the data were processed

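Agilent Feature Extraction 10.1.1.1 or 10.7.1.1 read the arrays, per the file headers, and the deposited files hold spot intensity on a linear scale with background already subtracted by that software. The deposited series table holds log2 values made by the authors. They tracked each array's log2 median signal in set 1 (lowest r 0.994) and set 2 (lowest r 0.9965), and in set 3 the processed signal (lowest r 0.9998). Column medians were 7.08 to 7.29. Their centring remains unknown.

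Probes were named by accession in a RefSeq gene table of GRCm38.p6, which gave a name to 27071 of 41174. Processed signals were put on a log2 scale and centred on each array's 75th percentile. Spots marked uneven or outlying (48 to 446 an array) were dropped, repeated spots were averaged, and a gene was read from its brightest probe. Probes were kept if well above background on every array of at least 1 group and measured on at least 2 arrays per group. Each set was fitted with limma 3.58.1 in R 4.3.3 (lmFit and eBayes, 2-sided, Benjamini-Hochberg over all genes and unnamed probes), and the steps were checked on simulated data. The number of arrays, 3 or 4 a group, limits the precision; the lowest correlation between 2 arrays of a group was 0.968. All probes of the 10 genes were reported. For the other lists counts were given, and only some of the called genes were named. Alternatives changed the background correction, scaling, filter, probe rule, slide block and eBayes options, and left out 1 array at a time. Figures used Python 3.11.15 and matplotlib 3.10.9. The members and lists were chosen with earlier results of these data known.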

Additional observations from a re-analysis of the deposited data

Results flagged for a closer look

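In the groups of 4 arrays, 20 combinations of gene and group were searched for an outlying array, of which chance flags about 1 in 20, and 1 was found: Tfr2 was 0.91 on CD34+ CD103- replicate 3 and 1.08 to 1.09 on the other 3 arrays. The Epo difference differed between array sets 2 and 3 for 6 of the 10 genes by a test of the gap itself: Slc25a37 (3.79), Slc40a1 (3.13), Tfrc (2.35), Steap3 (1.81), Slc11a2 (0.95) and Tfr2 (0.68). No explanation was tested for either.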

How the results depend on the processing

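For the differences called above, 376 of 382 recomputed values kept their direction and 330 also their call. The exceptions in direction, and 1 uncalled gene that became called in the opposite direction, concern Ediff against EryCP repeat and the gap between the Epo differences. Fth1 was -0.20 with quantile normalization, -0.42 with spike-in scaling and -0.15 in the deposited table. With spike-in scaling Tfr2 was -0.18, Slc11a2 -0.10 and Ireb2 -0.90 (adjusted p = 0.00262), and the gap of Tfr2 was -0.081. Spike-in scaling moves all genes together, as given above. A further 65 values changed sign with no call in either fit.

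Counts of the 10 genes called are given in the order CR Sca1lo against Sca1hi, EryCP against CR Sca1lo, EryCP against Sca1hi, Ediff against EryCP repeat, CD34- CD103- against CD34+ CD103-, CD34- CD103- Epo against CD34- CD103-, CD34- CD103- Epo against CD34+ CD103-, and the gap. They were 2, 1, 3, 7, 1, 1, 1 and 6. With the normexp background correction 0, 0, 0 and 1 were called in the first 4, 0 in the sixth and 1 for the gap, with 2, 73, 98 and 235 called among all genes in the first 4 against 950, 1311, 1691 and 13980. With the slide as a block the counts were 4, 3 and 5 in the first set and 2, 0 and 2 in the third. Of all features, 4696, 5346 and 5508 of 26465 were then called in the first set. In the third set 4843, 900 and 2111 of 27360 were. Without the block these numbers were 950, 1311 and 1691, and 3413, 710 and 1510. Slc25a37 after Epo in the third set was also not called (0 genes) with quantile normalization, spike-in scaling, no filter, the mean of all kept probes or the deposited table. The second comparison gave 2 genes with quantile normalization, in the deposited table and with a trended robust eBayes, and 0 with spike-in scaling and without slide 2, a setting chosen after seeing the data. In these settings 2308, 2987, 1637, 632 and 838 of all features were called, in that order, against the 1311 above. Spike-in scaling gave 2 in both comparisons with CD34+ CD103- cells (Slc11a2 and, lower, Slc25a28 in the first, and Slc25a28 and Ireb2, both lower, without Slc11a2 in the second), the robust fit 2 in the second of these, and the values deposited by the authors gave 5 in EryCP against Sca1hi. Features called there were 4442 and 8527 of 27360 with spike-in scaling, 1725 with the robust fit and 2888 of 26465 in the deposited table. Leaving out 1 array gave 0 to 1 in EryCP against CR Sca1lo, 0 in all 7 fits of CD34- CD103- Epo against CD34- CD103-, 5 to 7 in Ediff and 6 to 7 for the gap, and the same count in the other 4 comparisons. The cause of these changes was not tested. By replicate number, no paired analysis was possible because the titles share no such number between the groups compared. Pairing by slide was possible and is the slide block above; in the first set each slide held 1 array of each group.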

Other observations

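EryCP cells were measured in the first and again in the second array set. Because set and sample cannot be told apart, their levels are given side by side without a test. Tfr2 was 0.33 ± 0.27 (SD, n = 3) in EryCP and 2.17 ± 0.32 in EryCP repeat, and Slc11a2 was 1.68 ± 0.16 and 2.25 ± 0.09. Slc25a28 was 2.12 ± 0.14 and 2.76 ± 0.05, and Slc40a1 was -1.93 ± 0.25 and -2.57 ± 0.39. Tfrc was 3.63 ± 0.17 and 3.88 ± 0.06, and Fth1 was 8.07 ± 0.13 and 8.17 ± 0.06.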
